A study of Mus musculus with 3 samples.

Results

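Of 18461 regions enriched for trimethylation of lysine 4 on histone H3 (H3K4me3) in mouse pro-B cells, 1669 spanned 2 to 5 bins of 1 kb and held no bin enriched for the combined mark H3R2me2sK4me3, which is H3K4me3 together with symmetric dimethylation of arginine 2 (H3R2me2s). They were 9.04% of all H3K4me3 regions (8.63 to 9.46) and 15.0% of the 11131 regions of 2 to 5 bins. They were chosen by read counts: every called H3K4me3 bin held 25 reads or more, called bins were joined across at most 1 uncalled bin, and no bin reached 16 reads of the combined mark. H3R2me2s did not enter the choice. They are called here the regions without the combined mark, and the 9462 other regions of 2 to 5 bins the regions with the combined mark.

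Chromatin immunoprecipitation followed by sequencing was measured in 3 libraries, for H3R2me2s, the combined mark and H3K4me3, with 1 library per antibody. All 3 came from Abelson-transformed pro-B cells labelled RAG2-/-, strain C57BL/7, grown in culture, with no treatment or time point in the labels. The H3R2me2s and combined-mark antibodies were custom antibodies of the submitters' laboratory, and the H3K4me3 antibody was bought from Abcam. Since the cells are transformed and lack RAG2, the maps describe such cells and not normal pro-B cells, and no control immunoprecipitation was used here. With no replicate there was no test between antibodies or groups of regions, and all intervals are 95% intervals of counting error only.

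H3K4me3 is placed on nucleosomes at the starts of genes by SET1 and MLL enzyme complexes that contain WDR5. It is strong at active promoters and weaker at less active promoters and at enhancers. The neighbouring arginine can carry symmetric dimethylation, placed by the arginine methyltransferases PRMT5 and PRMT7, and WDR5 can bind the tail with this mark. The PHD finger of RAG2, a subunit of the recombinase that builds antigen receptor genes, binds H3K4me3 and also binds the tail that carries both marks.

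Total reads were 6923765 in the H3R2me2s library, 7128852 in the combined-mark library and 13898471 in the H3K4me3 library. Background, taken from all bins farther than 5 kb from every called bin, averaged 2.35, 1.86 and 2.98 reads per bin in the same order. Levels are given as multiples of it. The limits of 15, 16 and 25 reads per bin therefore stood at 6.37, 8.60 and 8.39 times background. The genes and the DNA sequence of the regions were not analysed here.

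The regions without the combined mark were mostly narrow and low in H3K4me3, the mark whose counts helped to choose them. Of the 1669, 1194 spanned 2 bins, 324 spanned 3, 120 spanned 4 and 31 spanned 5. The part of all H3K4me3 regions of a width that lacked the combined mark was 33.6% at 2 bins, 9.57% at 3, 4.56% at 4 and 1.99% at 5. Their H3K4me3 level was 12.4 times background, against 39.6 times in the regions with the combined mark. Per region they held 19.7 to 76.5 H3K4me3 reads per bin with a median of 35.5. A bridged bin under the limit lay in 12.4% of them (10.9 to 14.1), against 4.63% of the regions with the combined mark (4.21 to 5.07). Together they held 1.06% of all H3K4me3 reads, 0.541% of H3R2me2s reads and 0.491% of combined-mark reads.

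At the combined-mark limit, mean levels just inside and just outside were close. The 196 regions whose highest combined-mark bin held 15 reads, just inside, had mean levels of 14 times background for H3K4me3 and 4.28 for H3R2me2s, and 34.7% had an H3R2me2s bin (28.1 to 41.8). The 185 regions at 16 reads, just outside, had 15.0 and 4.51, and 45.9% had such a bin (38.6 to 53.4). By width, the 1194 regions of 2 bins, just inside, had 12.8 for H3K4me3 and 3.99 for H3R2me2s with an H3R2me2s bin in 22%, and the 4129 regions of 1 bin without the combined mark, just outside, had 11.6 and 3.69 with one in 8.40%. The 31 regions of 5 bins had 11.6 and 4.02 with one in 58.1%, and the 13 such regions of 6 bins, just outside, had 11.5 and 4.29 with one in 84.6%. The called share thus differed more across the width limits than the mean levels did. A call needs only 1 bin, and the part that the number of bins plays in that share was not tested. The 272 regions whose lowest called H3K4me3 bin held exactly 25 reads had 10.4 and 3.86.

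H3R2me2s, the measure the choice did not use, was called in a minority of these regions but lay above background over them as a group. A bin of 15 or more H3R2me2s reads occurred in 434 of the 1669 (26.0%, 23.9 to 28.2), where the share over all H3K4me3 regions was 63.2% and over all regions of 2 to 5 bins 79.0%. The share was thus far below both. The mean H3R2me2s level was 3.98 times background (3.94 to 4.02), against 9.81 in the regions with the combined mark. Per region the H3R2me2s reads per bin ran from 1 to 20.5 with a median of 9, and the middle 50% lay between 7 and 11.5. In the 1194 regions of 2 bins, the SD over regions was 6.05 reads around a mean of 18.8, where counting alone gives 4.33. Some spread between regions was therefore left beyond counting.

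**Figure D1:**
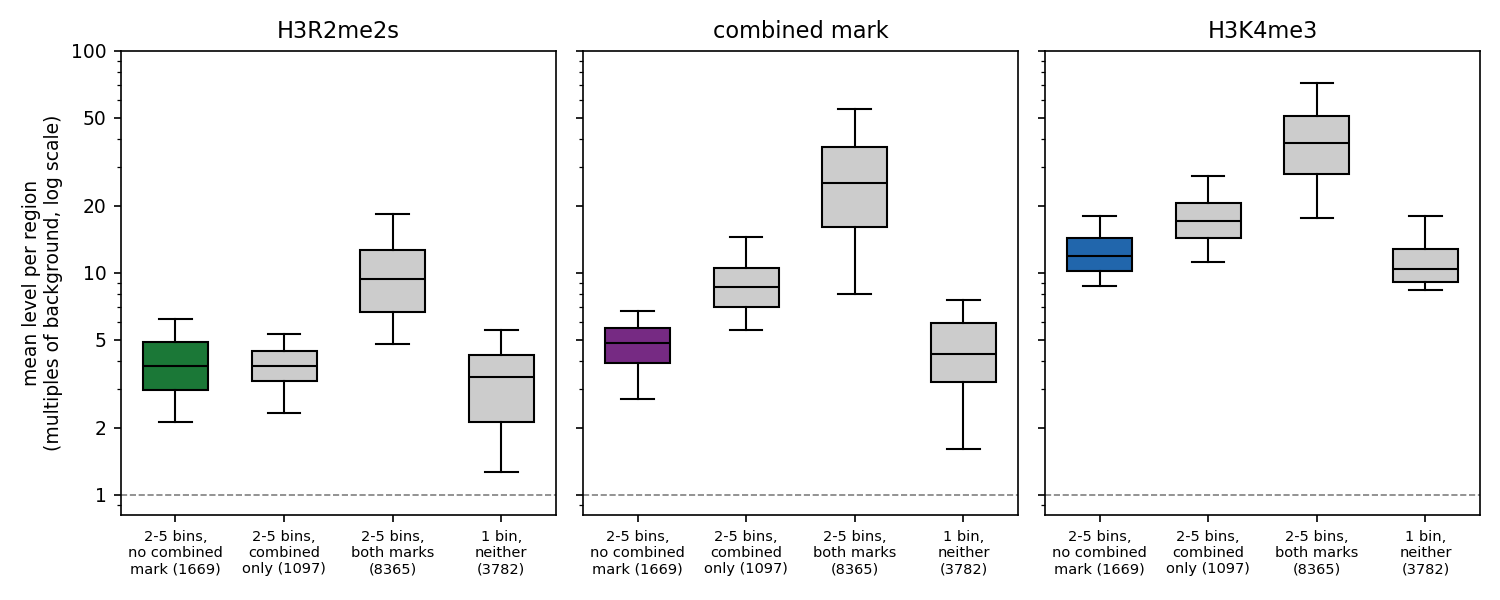
Mean level per region in each library, as multiples of background on a log axis, for regions of 2 to 5 bins without the combined mark (coloured), with the combined mark only, with both marks, and for 1-bin regions with neither. Boxes span the middle 50% of regions with the median as a line, whiskers reach the 5th and 95th percentiles, the dashed line is background, and numbers of regions are in brackets. H3R2me2s in the coloured box lies near that of the regions with the combined mark only, while H3K4me3 and the combined mark lie lower. The regions with the combined mark only were chosen to have no H3R2me2s bin, and the coloured ones to have no combined-mark bin.

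With H3K4me3 unmatched and over the genome-wide background, the regions without the combined mark had more H3R2me2s for their H3K4me3 than those with it. They stood close to all 1-bin regions without the combined mark. Over their own surroundings, the regions of 2 to 5 bins without the combined mark no longer had more than all regions with it. A net level is a level less background. Net H3R2me2s per net H3K4me3 was 0.262 (0.258 to 0.266), against 0.172 (0.169 to 0.175) in 1097 regions of 2 to 5 bins called for the combined mark but not for H3R2me2s, and 0.231 (0.230 to 0.231) in 8365 regions called for both. In 3782 1-bin regions called for neither it was 0.226 (0.223 to 0.230). These 3 groups were themselves chosen by H3R2me2s calls, so the direct comparison is with all regions with the combined mark, at 0.228 (0.228 to 0.229). The ratio of 0.262 to 0.228 was 1.15 (1.13 to 1.16), between groups whose H3K4me3 levels were 12.4 and 39.6 times background. It depended on the background: with the level of the surrounding chromatin subtracted in place of the genome-wide background, the values were 0.212 (0.208 to 0.216) and 0.217, and their ratio fell below 1, to 0.975 (0.956 to 0.994). By the same subtraction the regions with the combined mark only stood at 0.142, those with both marks at 0.220 and the 1-bin regions with neither at 0.181. The surroundings are the bins 6 to 15 kb outside each region that do not adjoin a called bin.

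At matched H3K4me3 of 30 to 60 reads per bin, H3R2me2s was nearly the same without and with the combined mark. Regions were divided by their mean H3K4me3 reads per bin. Between 30 and 35 reads, 431 regions without the combined mark had an H3R2me2s level of 3.81, against 3.86 in 93 regions with it. Between 35 and 40 the levels were 4.03 in 332 regions without it and 3.97 in 150 with it. Between 40 and 50 they were 4.31 in 395 regions and 4.40 in 573, and between 50 and 60 they were 4.64 in 124 regions and 4.86 in 695. The ratio of net H3R2me2s per net H3K4me3, without over with the combined mark, was 1.00 (0.940 to 1.07), 1.03 (0.977 to 1.09), 1.00 (0.965 to 1.04) and 0.974 (0.925 to 1.03) over these 4 classes, so no difference was detectable at this depth. Under 30 reads the ratio was 0.690 (0.614 to 0.776), with 349 regions without the combined mark and 22 with it.

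The share of regions with a called H3R2me2s bin was nevertheless lower without the combined mark in the upper classes. Between 40 and 50 H3K4me3 reads it was 31.1% without the combined mark (26.6 to 36.0), against 43.5% with it (39.4 to 47.6). Between 50 and 60 it was 41.1% (32.4 to 50.3) against 61.2% (57.4 to 64.8). Between 30 and 35 it was 20.6% (16.9 to 24.8) against 24.7% (16.4 to 34.8), where the intervals overlap. From 40 to 60 reads, then, the mean levels were close while a single bin reached the limit less often. The median width in these classes was 2 kb without the combined mark and 3 kb with it, and the part of width in the called share was not tested.

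**Figure D2:**
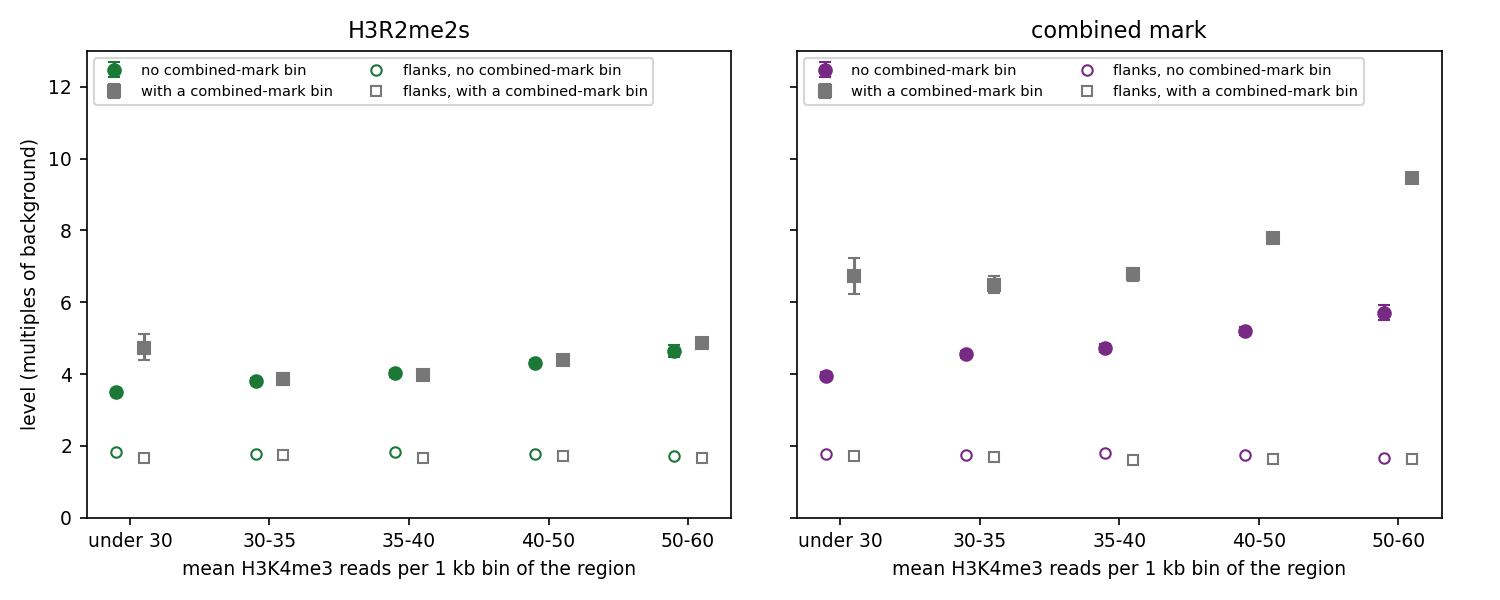
Level of H3R2me2s (left) and of the combined mark (right), as multiples of background, by class of mean H3K4me3 reads per 1 kb bin. Filled circles are regions of 2 to 5 bins without a combined-mark bin, filled squares are those with one, open symbols are the bins 6 to 15 kb outside, and bars are exact 95% Poisson intervals. The filled symbols for H3R2me2s nearly coincide from 30 reads upward, and those for the combined mark, which chose the regions, do not.

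The combined mark was low in these regions by choice, but it was not at background. Its mean level was 4.71 times background (4.66 to 4.76), against 26.8 times in the regions with the mark. The highest combined-mark bin held 8 reads or more, over 4 times background, in 1469 of the 1669 (88.0%), and 5 reads or fewer in 46. Its median was 11 reads, against 8 in the only bin of the 1-bin regions with neither mark. It is the highest of 2 to 5 bins, and the part that the number of bins plays in it was not tested. To measure the mark in reads that did not choose the regions, its reads were divided at random into 2 parts. The 1516 regions with no bin of 8 or more reads in the first part had a level of 4.33 in that part and 5.18 (5.10 to 5.26) in the second, so the choice lowered the measured level. In the second part 33.6% of them (31.2 to 36.0) held a bin of 8 or more reads. Net combined mark per net H3K4me3 was 0.365 in the second part. A region without a combined-mark bin was thus not shown to lack the mark.

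H3R2me2s per H3K4me3 hardly changed with the combined mark among these regions, with H3K4me3 not held fixed. Where the combined mark averaged under 5 reads per bin, in 79 regions, net H3R2me2s per net H3K4me3 was 0.248 (0.229 to 0.269). It was 0.265 (0.257 to 0.274) in 348 regions of 5 to 7.5 reads, 0.265 (0.259 to 0.271) in 678 regions of 7.5 to 10, and 0.259 (0.253 to 0.265) in 564 regions of 10 or more. The H3R2me2s level itself was 3.31, 3.66, 3.92 and 4.36 in the same order, and H3K4me3 was 10.3, 11.0, 12 and 14. By H3K4me3 reads per bin, the ratio in these regions fell from 0.308 under 30 reads to 0.211 at 50 or more. The combined-mark classes thus differed in H3K4me3, and H3R2me2s at a given H3K4me3 was not compared between them.

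By width, the H3R2me2s level was flat while the share of regions with a called bin was higher in wider regions. Levels were 3.99, 3.92, 4.05 and 4.02 at 2, 3, 4 and 5 bins. H3K4me3 was 12.8, 11.8, 11.4 and 11.6 in the same order. Per net H3K4me3, net H3R2me2s was therefore not flat, at 0.253 (0.248 to 0.258), 0.269 (0.261 to 0.278), 0.292 (0.280 to 0.305) and 0.285 (0.264 to 0.307). The share called was 22% (19.7 to 24.5), 30.9% (25.9 to 36.2), 44.2% (35.1 to 53.5) and 58.1% (39.1 to 75.5). The part that the number of bins itself plays in this was not tested.

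H3R2me2s and the combined mark were both centred on H3K4me3 in these regions, with lower contrast than H3K4me3. Reads were counted around the median H3K4me3 read of each region, in the 818 regions more than 10 kb from any other. Within 500 bp, H3R2me2s was 4.38 times background (4.29 to 4.48), the combined mark 6.02 (5.90 to 6.15) and H3K4me3 17.2. At 3 to 5 kb they were 1.82, 1.82 and 2.27, so that centre over surroundings was 2.4 in the H3R2me2s library, 3.32 in the combined-mark library and 7.55 in the H3K4me3 library. In 6202 regions with the combined mark at the same spacing the contrasts were 10.3, 28.8 and 29.1. The H3K4me3 contrast is raised by centring on its own reads. The combined-mark contrast is held down by the choice, which left out every region with a bin at or above the combined-mark limit. Its difference from the H3K4me3 contrast, and from the regions with the combined mark, is thus at least partly set by the choice.

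The bin with most H3K4me3 was more often than not the bin with most H3R2me2s and most combined mark in 2-bin regions. Without ties, this held for H3R2me2s in 635 of 1072 regions without the combined mark (59.2%, 56.2 to 62.2) and for the combined mark in 700 of 1063 (65.9%, 62.9 to 68.7), where equal placement gives 50%. In 2-bin regions with the combined mark the shares were 82.2% and 89.1%. The H3K4me3-richest bin held 53.3% of H3R2me2s reads (52.6 to 53.9) and 58.5% of H3K4me3 reads, against 64.6% and 67.1% in 2-bin regions with the combined mark. The regions without the combined mark held 9.37 H3R2me2s reads per bin, and the part of this depth in the lower shares was not tested.

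**Figure D3:**
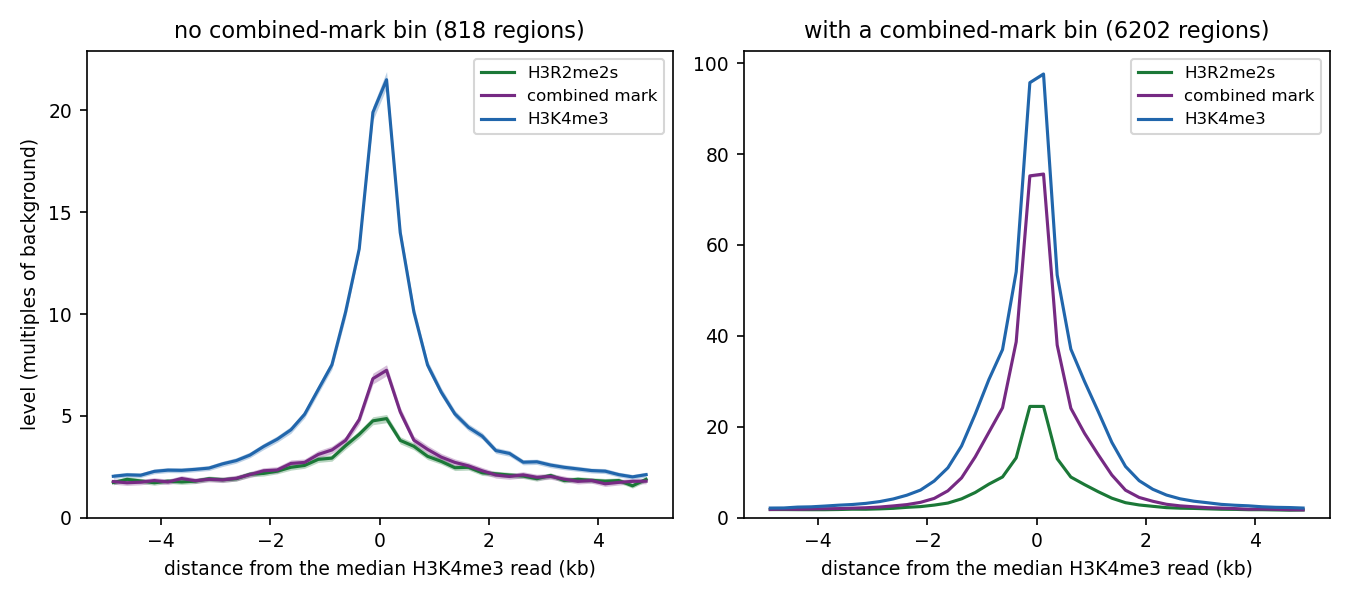
Mean level in 250 bp steps around the median H3K4me3 read, for regions of 2 to 5 bins more than 10 kb from another, without (left) and with (right) a combined-mark bin. Lines are multiples of background, shading is the exact 95% Poisson interval, and the vertical axes differ. All 3 marks are highest at the centre, where H3R2me2s within 500 bp is 4.38 times background on the left and 18.8 on the right.

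The regions without the combined mark lay closer to other H3K4me3 regions. The nearest one was within 5 kb for 33.1% of them (30.9 to 35.4), against 19.2% of the regions with the combined mark (18.5 to 20.1), and the median distance was 10 kb against 17 kb. Between these lay the 1-bin regions with neither mark, at 25.7% (24.3 to 27.1) and 15 kb. All H3K4me3 regions stood at 23.3% (22.7 to 23.9) and 15 kb. From the regions without the combined mark, the median to the nearest combined-mark bin was 20 kb. Of the 553 with a neighbour within 5 kb, 308 (55.7%, 51.4 to 59.9) had a nearest neighbour that held the combined mark and 99 had one of their own kind. The neighbour held the combined mark for 65.3% (63.1 to 67.5) of the 1821 regions with the combined mark that had one within 5 kb, and for 58.7% (55.6 to 61.9) of 972 such 1-bin regions with neither mark.

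H3R2me2s in these regions was higher where other H3K4me3 regions were near, while H3K4me3 was not. From 2 to 5 kb, 6 to 20 kb, 21 to 100 kb and over 100 kb from the nearest other region, H3R2me2s was 4.20 (4.13 to 4.27), 4.07 (4.0 to 4.14), 3.70 (3.63 to 3.78) and 3.51 (3.37 to 3.65) times background. H3K4me3 was 12.1, 12.4, 12.5 and 12.9. The share with a called H3R2me2s bin was 31.5% (27.6 to 35.5), 28.2% (24.6 to 32.2), 19.5% (15.8 to 23.6) and 14.2% (8.62 to 21.5), over 553, 563, 426 and 127 regions. Net H3R2me2s per net H3K4me3 was 0.288 (0.281 to 0.295) in the nearest class and 0.211 (0.199 to 0.224) in the farthest. In the regions with the combined mark it was 0.228 and 0.222. The fall was not particular to the regions of 2 to 5 bins: in 1-bin regions with neither mark the ratio was 0.256 (0.247 to 0.264) in the nearest class and 0.176 (0.165 to 0.187) in the farthest, with H3R2me2s at 3.56 and 2.84 and H3K4me3 at 11.0 and 11.5.

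The surrounding chromatin moved in the same direction. In the bins 6 to 15 kb outside, H3R2me2s was 1.98, 1.92, 1.63 and 1.32 times background over the same 4 classes. Inside less surroundings, H3R2me2s was 2.22, 2.15, 2.07 and 2.20, so that with the surroundings subtracted the fall with distance was no longer seen in H3R2me2s itself. Per H3K4me3 treated likewise, the values were 0.228, 0.211, 0.192 and 0.190.

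**Figure D4:**
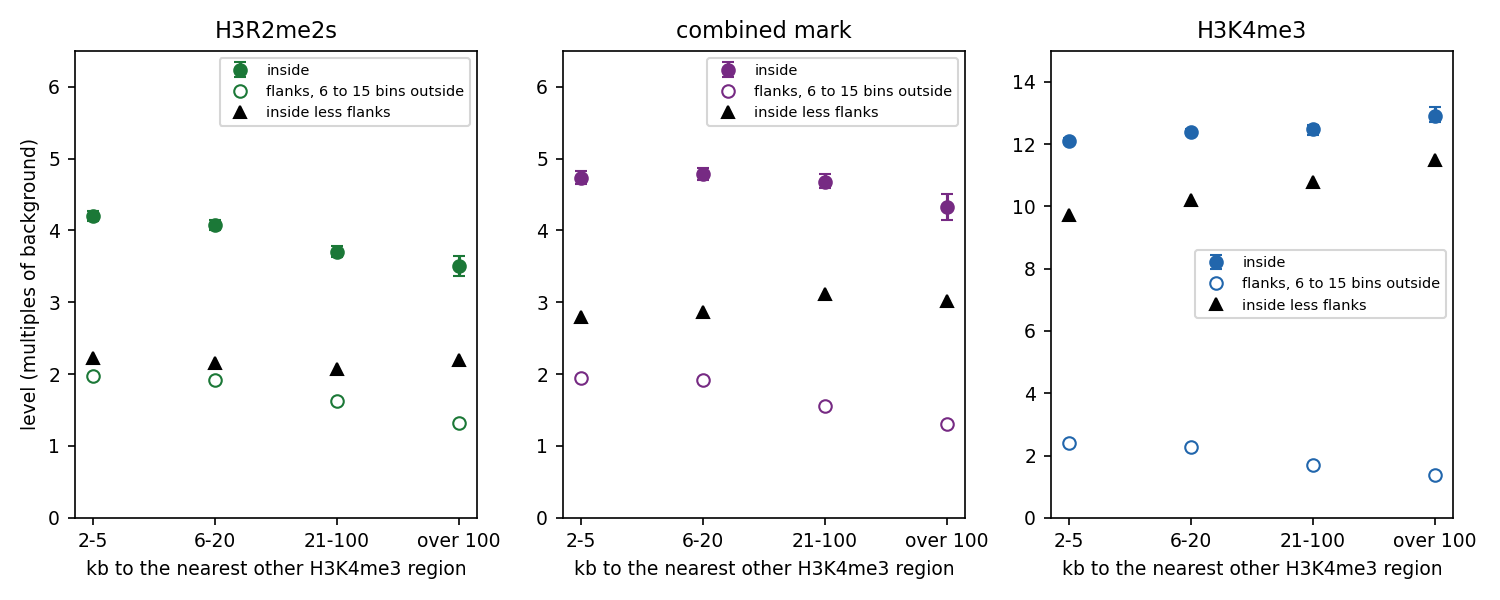
Levels in the regions without the combined mark by distance to the nearest other H3K4me3 region, as multiples of background, in each library. Filled circles are the regions with exact 95% Poisson intervals, open circles the bins 6 to 15 kb outside, and triangles the difference, and the H3K4me3 axis has its own scale. H3R2me2s inside falls from 4.20 to 3.51 with distance, and the triangles for H3R2me2s stay between 2.07 and 2.22.

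With regions grouped directly by H3R2me2s reads from their surroundings, the H3R2me2s level inside and the called share rose with the surroundings. Where H3R2me2s in the surroundings was under 1.25 times background, in 233 regions, the level inside was 3.24 (3.14 to 3.34) and a bin was called in 10.3% (6.71 to 14.9). With surroundings of 1.25 to 1.75, in 492 regions, they were 3.80 and 23.2% (19.5 to 27.2). With surroundings of 1.75 to 2.25, in 508 regions, they were 4.16 and 27.6% (23.7 to 31.7), and with 2.25 or more, in 324 regions, 4.43 (4.33 to 4.52) and 38.3% (33.0 to 43.8). The level inside less that of the surroundings was 2.24, 2.28, 2.18 and 1.85 in the same order, and H3K4me3 inside was 12.2, 12.5, 12.6 and 12.1. The same surrounding reads formed the classes and were subtracted, so the change in the subtracted level is partly set by the grouping. In the regions with the combined mark the called share was 86.8%, 89.9%, 88.3% and 86.6% over these classes. The other 112 regions without the combined mark had fewer than 10 usable bins around them.

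**Figure D5:**
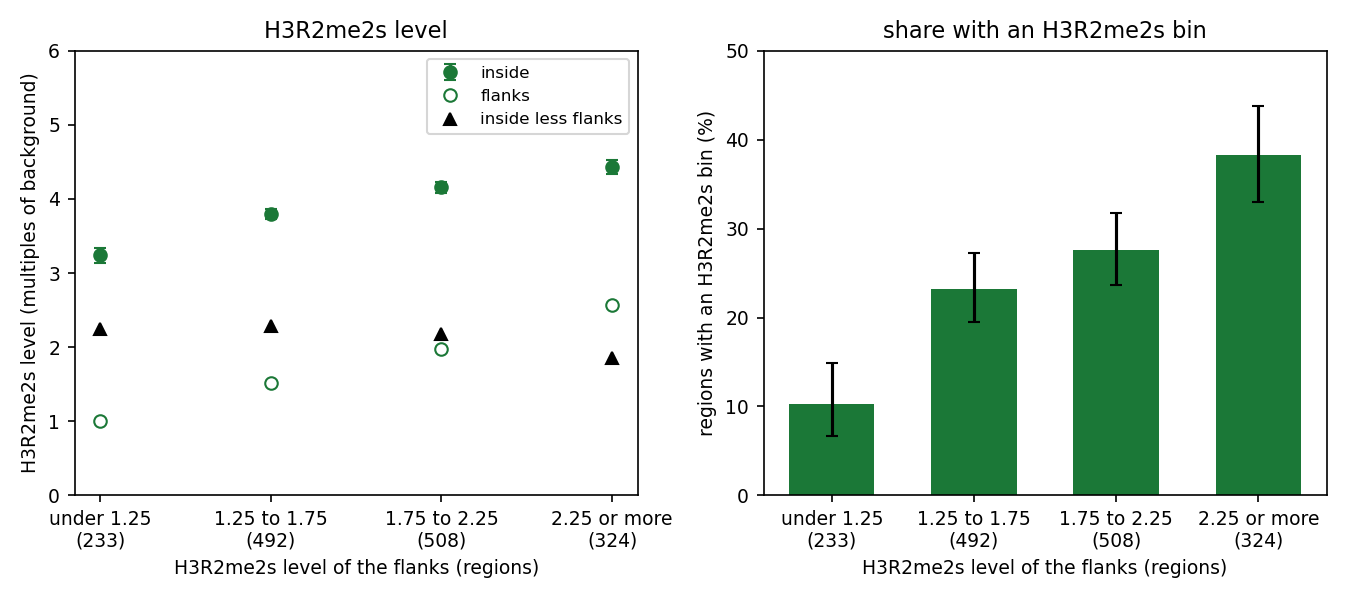
Regions without the combined mark grouped by the H3R2me2s level of the bins 6 to 15 kb outside, with numbers of regions in brackets. Left, H3R2me2s inside (filled, exact 95% Poisson intervals), outside (open) and the difference (triangles), as multiples of background. Right, the share with a bin of 15 or more H3R2me2s reads, with exact 95% binomial intervals, from 10.3% in the lowest class to 38.3% in the highest.

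The 434 regions with an H3R2me2s bin differed from the 1235 with none in more than that mark. Their H3K4me3 level was 13.2 (13.1 to 13.4), against 12 (11.9 to 12.1) in those with none. The combined mark stood at 4.93 (4.84 to 5.03), against 4.62 (4.56 to 4.68). Per net H3K4me3 the combined mark was 0.321 (0.313 to 0.330) with an H3R2me2s bin and 0.328 (0.323 to 0.334) without one. The nearest other H3K4me3 region was within 5 kb for 40.1% (35.4 to 44.9) of those with an H3R2me2s bin and 30.7% (28.1 to 33.3) of those without one. Surrounding H3R2me2s was 1.98 and 1.74 times background, and surrounding H3K4me3 was 2.29 and 1.97.

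The strands were even in these regions, and repeated reads were a smaller share than in regions with both marks. Reads at a position and strand already seen were 4.89% of the H3R2me2s reads, 1.63% of those of the combined mark and 3.32% of those of H3K4me3, against 6.01%, 4.30% and 12.2% in regions with both marks and 4.01%, 2.03% and 5.16% in those with the combined mark only. For H3R2me2s the share was thus higher than in the regions with the combined mark only, at 4.67 to 5.11 against 3.77 to 4.26. With 1 read kept per position and strand, an H3R2me2s bin was called in 21.4% in place of 26.0%. The plus strand held 50.4%, 50.3% and 50% of their reads in the same order.

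Regions without the combined mark were found on every chromosome but Y, which held 8 regions of 2 to 5 bins. Their share of regions of 2 to 5 bins was 15.1% over the autosomes (14.5 to 15.8) and ranged from 11.3% on chromosome 8 (8.82 to 14.3) to 19.1% on chromosome 14 (15.4 to 23.4). On chromosome X it was 10.9%, or 36 of 330 (7.76 to 14.8), and 4 of the 36 had an H3R2me2s bin (11.1%), against 26.3% on the autosomes. Background reads per bin on X were 1.23 in the H3R2me2s library, 1.01 in the combined-mark library and 1.63 in the H3K4me3 library, below every autosome, so the fixed limits in reads stand higher there relative to background.

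Single regions rest on few reads, and those below were named by their rank on each measure (mm9, reads per 1 kb bin from left to right). Most H3R2me2s per bin was found at chromosome 2, 59913001 to 59915000, with 21 and 20 reads, beside 4 and 14 of the combined mark and 25 and 57 of H3K4me3. The bin to its right held 22 H3R2me2s reads and 11 of H3K4me3, so H3R2me2s reached past the H3K4me3 region. Chromosome 8, 25066001 to 25068000, had 19 and 21 H3R2me2s reads, 11 and 11 of the combined mark and 49 and 47 of H3K4me3. Chromosome 1, 89762001 to 89764000, had 20 and 19 H3R2me2s reads, 12 and 15 of the combined mark, and 36 and 53 of H3K4me3. In these 3 regions both bins passed the H3R2me2s limit and none passed the combined-mark limit. At chromosome 2, 153369001 to 153371000, the bin with most H3R2me2s (26 reads, beside 10) was not the bin with most H3K4me3 (37, beside 59). Chromosome 14, 83317001 to 83319000, was the most isolated of the 5, with 1523 kb free to the nearest other H3K4me3 region. It had 24 and 12 H3R2me2s reads, 8 and 7 of the combined mark and 75 and 64 of H3K4me3.

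The regions with most H3K4me3 had H3R2me2s above the median of 9 reads per bin, at 10.5 to 15.5. Chromosome 3, 109253001 to 109255000, had 92 and 61 H3K4me3 reads, 19 and 10 of H3R2me2s and 13 and 10 of the combined mark. Chromosome 4, 115816001 to 115818000, had 85 and 67 of H3K4me3, 7 and 18 of H3R2me2s, and 13 and 15 of the combined mark. Chromosome 10, 110258001 to 110260000, had 68 and 79 H3K4me3 reads with 11 and 10 of H3R2me2s, and chromosome 10, 26511001 to 26513000, had 72 and 74 with 8 and 14. Chromosome 1, 182903001 to 182905000, had 67 and 75 with 16 and 15. Their combined-mark to H3K4me3 ratios, in reads scaled to each library's total, were 0.288 to 0.359, below the median of 0.462 over all 1669, as the limit on the combined mark forces where H3K4me3 is high.

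The lowest H3R2me2s to H3K4me3 ratios, scaled to library totals and ranked by the upper bound of their interval, lay in isolated regions. At chromosome 12, 74154001 to 74156000, there were 0 and 2 H3R2me2s reads beside 39 and 38 of H3K4me3, a ratio of 0.0521 (0.0062 to 0.195). Chromosome 3, 40439001 to 40441000, had 5 and 0 beside 55 and 31 (0.117, 0.0370 to 0.283), and chromosome 9, 80012001 to 80014000, had 2 and 6 beside 51 and 56 (0.150, 0.0632 to 0.307). Chromosome 5, 52503001 to 52507000, had 7, 2, 6 and 3 beside 71, 31, 40 and 47 (0.191, 0.111 to 0.310). Chromosome 2, 9800001 to 9802000, had 3 and 7 beside 85 and 35 (0.167, 0.0782 to 0.318). These regions held 1 to 5 H3R2me2s reads per bin, against a background of 2.35. The nearest other H3K4me3 region was 68 to 166 kb away.

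The highest ratios, ranked by the lower bound of their interval, lay in regions with at most 37 H3K4me3 reads in any bin. Chromosome 12, 80479001 to 80482000, had 14, 8 and 18 H3R2me2s reads beside 27, 3 and 30 of H3K4me3 (1.34, 0.874 to 2.03), with a bridged bin in the middle, and 41 kb away lay another region of its own kind. Chromosome 8, 129089001 to 129092000, had 13, 11 and 21 beside 25, 26 and 32 (1.09, 0.740 to 1.58). Chromosome 4, 102257001 to 102259000, had 18 and 12 beside 25 and 25 (1.20, 0.739 to 1.93), with 4 and 4 of the combined mark. Chromosome 11, 11556001 to 11561000, had 10, 12, 15, 14 and 16 beside 29, 23, 32, 24 and 30 (0.975, 0.717 to 1.31), and 5 kb from it lay another region of its own kind. Chromosome 7, 113401001 to 113405000, had 14, 17, 13 and 15 beside 37, 31, 27 and 25 (0.987, 0.710 to 1.36). The median over the 1669 was 0.502.

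By the upper bound of its ratio to H3K4me3, the combined mark ranked lowest at chromosome 11, 117209001 to 117212000, although the next 4 had lower ratios from fewer reads. It had 0, 4 and 10 reads beside 27, 70 and 62 of H3K4me3 (0.172, 0.0918 to 0.297). H3R2me2s there was 10, 21 and 14, past its limit in 1 bin. Chromosome 12, 120085001 to 120087000, had 4 and 3 combined-mark reads beside 59 and 39 (0.139, 0.0546 to 0.298). Chromosome 5, 53603001 to 53606000, had 2, 1 and 1 beside 32, 9 and 28 (0.113, 0.0299 to 0.303). Chromosome 11, 44739001 to 44742000, had 5, 2 and 0 beside 30, 32 and 32 (0.145, 0.0568 to 0.311), with 10, 16 and 3 of H3R2me2s. Chromosome 1, 142635001 to 142637000, had 2 and 3 beside 27 and 48 (0.130, 0.0410 to 0.317), with 8 and 12 of H3R2me2s. All 5 were chosen for their low combined mark, so its level against H3R2me2s in them is set by the choice.

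Of the 1669 regions without the combined mark, 1051 shared no stretch of 100 kb with another of their kind, and 618 (37.0%, 34.7 to 39.4) shared one. Whether this differs from other sets of regions was not tested. The most within 100 kb was 4, found in 10 places. The first 5 of these in genome order differed in H3R2me2s, and each level below is a mean over the 4 regions. At chromosome 1, 88320001 to 88415000, the 4 regions shared the stretch with 4 that held the combined mark. H3R2me2s there averaged 5.05 times background, from 4.46 to 6.23 over the regions, with 2 called. At chromosome 8, 68916001 to 68962000, no combined-mark region lay among them, and H3R2me2s averaged 4.57, from 1.91 to 5.95. At chromosome 9 the groups at 13897001 to 13981000 and at 57125001 to 57189000 averaged 4.30 and 3.87. At chromosome 10, 81033001 to 81114000, the average was 3.16, from 1.70 to 4.25, with none called, although 4 combined-mark regions lay in the same stretch.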

How the data were processed

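The authors deposited 1 mapped read of 39 bases per line, so reads per bin are raw counts with no scaling. Per the labels' protocols, nuclei were sonicated and libraries were amplified with 15 PCR cycles and cut to 100 to 500 bp. Per the submitters' processing notes the build was mm9. The aligner and any handling of repeated reads are not given in the sources used here. Repeated reads were not all removed: 5.22% of H3R2me2s, 2.64% of combined-mark and 6.20% of H3K4me3 reads repeated a position and strand.

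Reads were moved 75 bp in the 3-prime direction and counted in 1 kb bins with Python 3.11.15, numpy 2.4.6, scipy 1.17.1 and pandas 2.3.3. Shares have exact Clopper-Pearson intervals, levels exact Poisson intervals, ratios of net levels intervals from Poisson counts by the delta method, and read ratios of single regions exact binomial intervals. Reads amplified by PCR are not independent molecules. The calling and the net ratios were tested on simulated reads with counting error only and an even background. That test does not cover the spread beyond counting or the raised surroundings seen in these data. Named regions were the 5 with most H3R2me2s and with most H3K4me3 reads per bin, the 5 with the lowest and highest H3R2me2s and the lowest combined-mark reads per H3K4me3 read, ranked by interval bound, and the 5 groups with most members within 100 kb. Other limits, joining, bin starts, repeats, depth, background and chromosomes were tried as alternatives. The regions, classes and rules were chosen with earlier results of these data known.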

Additional observations from a re-analysis of the deposited data

How the results depend on the processing

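Of 87 values from 6 results under 15 settings, 44 stayed within the interval of the main value (for the count of regions, within 1.5 times), 42 moved outside it and 1 turned. The ratio of 1.15, the only result with a direction, was the one that turned, to 0.975 (0.956 to 0.994) with the surroundings subtracted, a setting chosen after seeing the data, under which net H3R2me2s per net H3K4me3 was 0.212 and net combined mark per net H3K4me3 0.285. At equal depth below, all libraries had 6923765 reads and the H3K4me3 limit was scaled to 13 reads. The count of 1669 regions became 876 with a combined-mark limit of 12 reads and 584 with an H3K4me3 limit of 35. It rose to 2310 with a combined-mark limit of 20 and to 2292 with an H3K4me3 limit of 22, both within 1.5 times. Taking the background from the surroundings could not change this count or the called share, which do not use the background.

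The share with an H3R2me2s bin (26.0%) was 20.7% and 30.3% at combined-mark limits of 12 and 20 reads, 21.8% and 34.6% at H3K4me3 limits of 22 and 35, and 21.4% with 1 read kept per position and strand, where the same limit meets fewer reads.

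The mean H3R2me2s level (3.98) was 3.94 with bins 500 bp later, 4.07 with no bin bridged, 3.9 with 2 bridged, 3.78 and 4.13 at combined-mark limits of 12 and 20, 3.79 and 4.43 at H3K4me3 limits of 22 and 35, 3.85 at equal depth, 3.89 on autosomes, and 2.22 as a multiple of the surroundings.

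Net H3R2me2s per net H3K4me3 (0.262) was 0.255 at a combined-mark limit of 20, 0.269 and 0.239 at H3K4me3 limits of 22 and 35, 0.25 at equal depth, 0.241 with each library divided by its surroundings, and 0.258 with regions chosen on 1 part of the combined-mark reads. Net combined mark per net H3K4me3 (0.326) was 0.321 with no bin bridged, 0.278 and 0.349 at combined-mark limits of 12 and 20, 0.332 and 0.298 at H3K4me3 limits of 22 and 35, 0.333 without repeated reads, 0.312 at equal depth, 0.331 by surroundings and 0.365 in the second part.

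The ratio of 1.15 to the regions with the combined mark was 1.13 with bins 500 bp later, 1.12 at a combined-mark limit of 20, 1.18 and 1.03 at H3K4me3 limits of 22 and 35, 1.05 without repeated reads, 1.10 at equal depth, 1.01 (0.988 to 1.03) by surroundings and 1.13 with regions chosen on 1 part. The cause of these moves was not tested. No paired analysis was possible because there was a single library per antibody, which also meant that none could be omitted. Single regions rest on few reads and cannot be ranked firmly.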
